A study of Mus musculus with 3 samples.

Results

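A set of dendritic cells from UVB-irradiated mouse skin, marked by the lectin Cd209a, was examined in single-cell transcriptomes. Its members were chosen by raw UMI counts (unique molecular identifiers, each standing for 1 captured transcript). A member had at least 5 UMIs of the class II genes H2-Aa and H2-Ab1 together and at least 1 UMI of 3 or more of the 6 genes Cd209a, Flt3, Ccl17, Napsa, Klrb1b and Itgax. It had 2 or fewer UMIs of C1qa, C1qb and C1qc together and none of Cd207, Xcr1, Ccr7, Cd3e or Cd3d, which removed most macrophages, Langerhans cells, type 1 and mature dendritic cells and T cells. Of 16604 cells that passed the filters, 873 were members. Because these counts set membership, the levels of the 16 genes of the rule are a description only.

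Conventional dendritic cells take up antigen in a tissue, load it onto class II molecules and show it to T cells. In the dermis the type 2 subset is known for the lectin Mgl2 (CD301b) and for dependence on Irf4 and Klf4, whereas the type 1 subset carries Xcr1 and high Irf8. The growth factor receptor Flt3 supports both subsets, and signals through the GM-CSF receptor shape them under inflammation.

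To define the immune response that accompanies melanocyte stem cell migration after ultraviolet B light, dorsal skin of 8-week-old C57Bl/6 males in telogen was digested, and CD45+ cells were enriched on magnetic beads before sequencing of transcript 3′ ends. WT_Ctrl was wild-type skin without UVB, and WT_UV was wild-type skin that received 3 exposures, 1 every 2 days, and was taken at day 5. RP_UV was skin of RP mice with the same exposures and day. RP mice carry Rosa26-rtTA and Tre-Ptgs2, so doxycycline drives a rat Ptgs2 (Cox-2) transgene in all tissues rather than in 1 cell type. Rat transcripts may have been counted in part under the mouse gene, which was not tested. Each group was 1 library, so no difference below has a replicate check, and no test was run. Intervals are 95% intervals that cover counting error only.

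The libraries held 34985549 to 82722013 UMIs, and WT_UV was the deepest. A member had a median of 6649 UMIs in WT_Ctrl, 15903 in WT_UV and 6101 in RP_UV. The raw-file IDs in the labels carry 1 run code for WT_Ctrl and RP_UV and a different one for WT_UV, so that run and group cannot be told apart in any ratio that includes WT_UV. RP_UV against WT_Ctrl was compared within 1 run code but differs in both irradiation and genotype. Any 2 libraries shared between 8 and 11 cell barcodes, none of them among members. The 3 ratios share libraries and are given side by side.

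The genes of the rule are described first, since their shares follow from the choice of members. Shares in this paragraph are at full depth unless stated, and WT_UV was the deepest. A Cd209a UMI was found in 97.1% of members in WT_Ctrl, 94.9% in WT_UV and 91.1% in RP_UV, and Napsa, an aspartic protease, in at least 95.6% of each. Genes outside the rule are given beside the label. Mgl2, which the rule did not use, was found in 96.1%, 93% and 90% of members. In T cells it was found in 2.49%, 5.59% and 3.23%, at a median depth of 2477, 5186 and 1842 UMIs. C1q-high macrophages (defined below) also held Mgl2, in WT_Ctrl at a level near that of members. It therefore does not set members apart from macrophages there. The T cell class held cells with a Cd3e or Cd3d UMI, no C1q UMI and fewer than 5 class II UMIs. In RP_UV its 31 cells were high in neutrophil transcripts, so T cell values of RP_UV below are not read as expression by T cells. Ccl17, a chemokine that attracts T cells and is part of the working name, was found in only 4.36%, 11.4% and 22.2% of members. The cells are therefore called Cd209a dendritic cells here. Zbtb46, a transcription factor of conventional dendritic cells, was sparse, with a UMI in 12.1%, 26.2% and 5.56% of members and a level of 20.9, 22.5 and 8.3 CPM (the gene's UMIs summed over members and scaled to the same total of all genes in each library). In C1q-high macrophages, cells with 10 or more C1q UMIs, Zbtb46 was at 7.35, 5.19 and 4.05 CPM. In 41 Xcr1 cells, 21, 16 and 4 by library, it was at 36.7, 21.9 and 43.7 CPM, the last from 1 UMI.

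Other cell types were traced by their marker lists. The B cell markers Cd79a and Ms4a1 were at 0 in members of every library. The 9 macrophage markers summed to 950, 1055 and 1163 CPM in members and to 6402, 7791 and 10056 CPM in the other kept cells. The 5 neutrophil markers summed to 5.32, 18.8 and 968 CPM in members, where 21.1% of RP_UV members had at least 1 such UMI, and to 53.8, 175 and 1783 CPM in the other cells. Monocyte markers summed to 508, 711 and 289 CPM, and those of type 1 dendritic cells to 184, 220 and 89.6 and of mature dendritic cells to 203, 208 and 176. Langerhans markers were at 32.6, 139 and 38.2 CPM, plasmacytoid markers at 79.1, 116 and 43.2 and those of NK or innate lymphoid cells at 107, 109 and 193. T cell, mast and melanocyte markers were each at 15.6 CPM or less, and endothelial markers at 52.8, 19.8 and 8.3 CPM. The 9 keratinocyte markers summed to 549, 364 and 737 CPM and the 6 fibroblast markers to 783, 29.4 and 51.5 CPM. Doublets were not removed, since the study names no caller for them. The part of these foreign transcripts in the results below was not tested beyond the values given.

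Many members lay close to a threshold of the rule. Exactly 3 of the 6 panel genes were found in 65.1% of members in WT_Ctrl, 38.6% in the deeper WT_UV and 53.3% in RP_UV. The 195, 77 and 40 cells that met every other condition with only 2 panel genes had Mgl2 at 1797, 857 and 2144 CPM, and the members with exactly 3 had it at 2272, 1827 and 2081 CPM. On the other limit, 101, 178 and 51 members had 1 or 2 C1q UMIs, and 4, 37 and 15 cells just outside had 3 or 4.

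Relative to other cells with a Ptprc (CD45) UMI, the genes with the highest ratio in all 3 libraries included 4 genes of the rule (Flt3, Napsa, Cd209a and Itgax) and 11 that it did not use. Adam23, an adhesion protein, was at 200, 189 and 84.6 CPM in members of WT_Ctrl, WT_UV and RP_UV and at 43.7, 37 and 10.5 CPM in other Ptprc cells. Tnip3, an inhibitor of NF-κB signalling, was at 282, 241 and 302 CPM against 84.6, 71.2 and 31.4. The others were Slc27a3, Lmo1, Casp6, Sept3, Ear2, H2-DMb2, Dpp4, Nr4a3 and Tnfsf9. Among them Ear2, an eosinophil-associated ribonuclease, stood at 631, 493 and 443 CPM against 224, 178 and 50.5. The chaperone subunit H2-DMb2, which helps load class II molecules, was at 124, 154 and 128 CPM against 41.3, 52.6 and 18.3.

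Next, the share of Cd209a dendritic cells was compared between libraries. They made up 413 of 5309 kept cells in WT_Ctrl, which is 7.78% (7.09 to 8.53). In WT_UV there were 370 of 5225, or 7.08% (6.42 to 7.81), and in RP_UV 90 of 6070, or 1.48% (1.21 to 1.82). The share of the irradiated wild-type library was thus within counting error of the control, with a ratio of 0.91 (0.795 to 1.04). That of RP_UV was 0.209 of WT_UV (0.167 to 0.263) and 0.191 of WT_Ctrl (0.152 to 0.239). When every cell was reduced to 2000 UMIs before the rule was applied, 149, 159 and 50 cells met it. Both RP_UV ratios were then larger, at 0.349 and 0.342. Thinning also removes UMIs of the excluded genes, so these rebuilt members can include cells that fail the rule at full depth.

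The denominator mattered for these ratios. The denominators that follow were not thinned, and their UMIs are found more readily in deeper cells. Kept cells had a median of 4246 UMIs in WT_Ctrl, 10557 in WT_UV and 3774 in RP_UV. The part of depth in the ratios below was not tested. Over all kept cells thinned to 2000 UMIs, the shares were 3.39%, 3.32% and 1.16%. Among kept cells with a Ptprc UMI, which were 51.6%, 83.5% and 45.1% of kept cells, the share was 14.3% in WT_Ctrl, 8.41% in WT_UV and 3.1% in RP_UV. WT_UV was then at 0.588 of WT_Ctrl (0.514 to 0.673) and RP_UV at 0.369 of WT_UV (0.293 to 0.465). Among cells with 5 or more H2-Aa and H2-Ab1 UMIs the shares were 14.6%, 10.8% and 9.77%, and RP_UV was at 0.902 of WT_UV, an interval of 0.725 to 1.12 that includes 1. Such class II cells themselves were 53.1%, 65.4% and 15.2% of all kept cells in the same order. Outside the members, H2-Aa and H2-Ab1 together were at 9152, 8599 and 1991 CPM, while within members they were at 33060, 21833 and 23064 CPM.

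**Figure D1:**
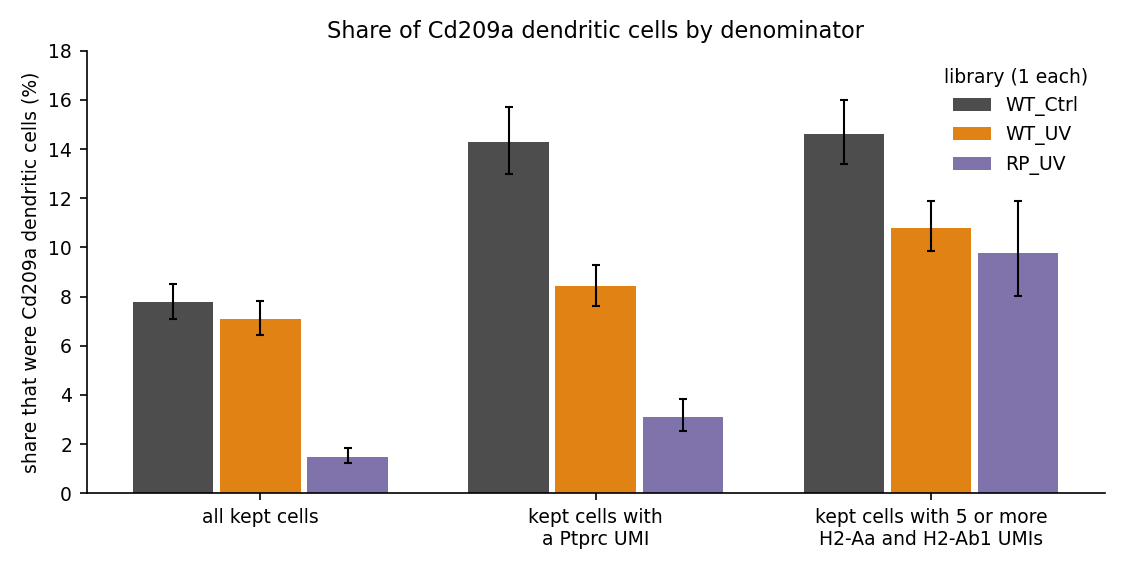
Share of Cd209a dendritic cells in each library (percent, bars from 0, 1 library a bar, 95% Wilson intervals) over all kept cells, over kept cells with a Ptprc UMI and over kept cells with 5 or more class II UMIs. The RP_UV bar is the lowest over the first pair of denominators, at 1.48% and 3.1%, and overlaps the WT_UV interval over class II cells, at 9.77% against 10.8%.

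Among other immune classes taken from UMIs, the ratio of RP_UV to WT_Ctrl was 0.167 for Xcr1 cells (0.0572 to 0.485) and 0.113 for T cells (0.0775 to 0.163). Its interval overlapped that of Cd209a dendritic cells for the first and in part for the second. C1q-high macrophages had a ratio of 1.16 (1.11 to 1.22), which did not overlap it.

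Cd209a dendritic cells were not uniform. Apod, which encodes the lipid carrier apolipoprotein D, divided them into groups of unlike size between libraries, and it was singled out after its values were seen. At 2000 UMIs a cell, an Apod UMI was found in 164 of 407 members in WT_Ctrl, or 40.3% (35.6 to 45.1), in 74 of 370 in WT_UV, or 20% (16.2 to 24.4), and in 2 of 89 in RP_UV, or 2.25% (0.618 to 7.83). The unthinned shares were 44.1%, 26.5% and 4.44%. The summed level was 836 CPM in WT_Ctrl, 352 in WT_UV and 6.64 in RP_UV. T cells carried Apod at 11.2, 1.08 and 0 CPM and C1q-high macrophages at 27.4, 7.25 and 36.8, so the levels in wild-type members were far above both.

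Several genes separated Apod-positive from Apod-negative members in both wild-type libraries. Tcf4, a transcription factor known for its role in plasmacytoid dendritic cells, was at 771 against 117 CPM in WT_Ctrl and at 811 against 144 CPM in WT_UV. The orphan nuclear receptor Nr4a3 was at 713 against 128 and at 1257 against 145 CPM, and the lectin Cd209e at 1070 against 276 and at 1135 against 166. Rbp4, a retinol carrier, was almost limited to Apod-positive cells, at 229 against 4.12 and at 196 against 1.69 CPM, and so was the T cell receptor transcript Trbc1 at 265 against 4.12 and at 203 against 6.76.

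Another group was lower in Apod-positive members. Ear2 was at 104 against 963 CPM in WT_Ctrl and at 67.6 against 671 in WT_UV. Ccr2, the receptor that brings monocytes and dendritic cell precursors into tissue, was at 73.2 against 595 and at 60.8 against 688. The elastase Mmp12 was at 15.2 against 220 and at 27 against 367, and the Fc receptor Fcgr3 at 12.2 against 245 and at 13.5 against 191. Siglech, a marker of plasmacytoid dendritic cells, was found in only 0.491%, 1.35% and 0% of thinned members, and the 0 of 89 in RP_UV allows up to 3.37% of cells with a UMI at this depth.

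**Figure D2:**
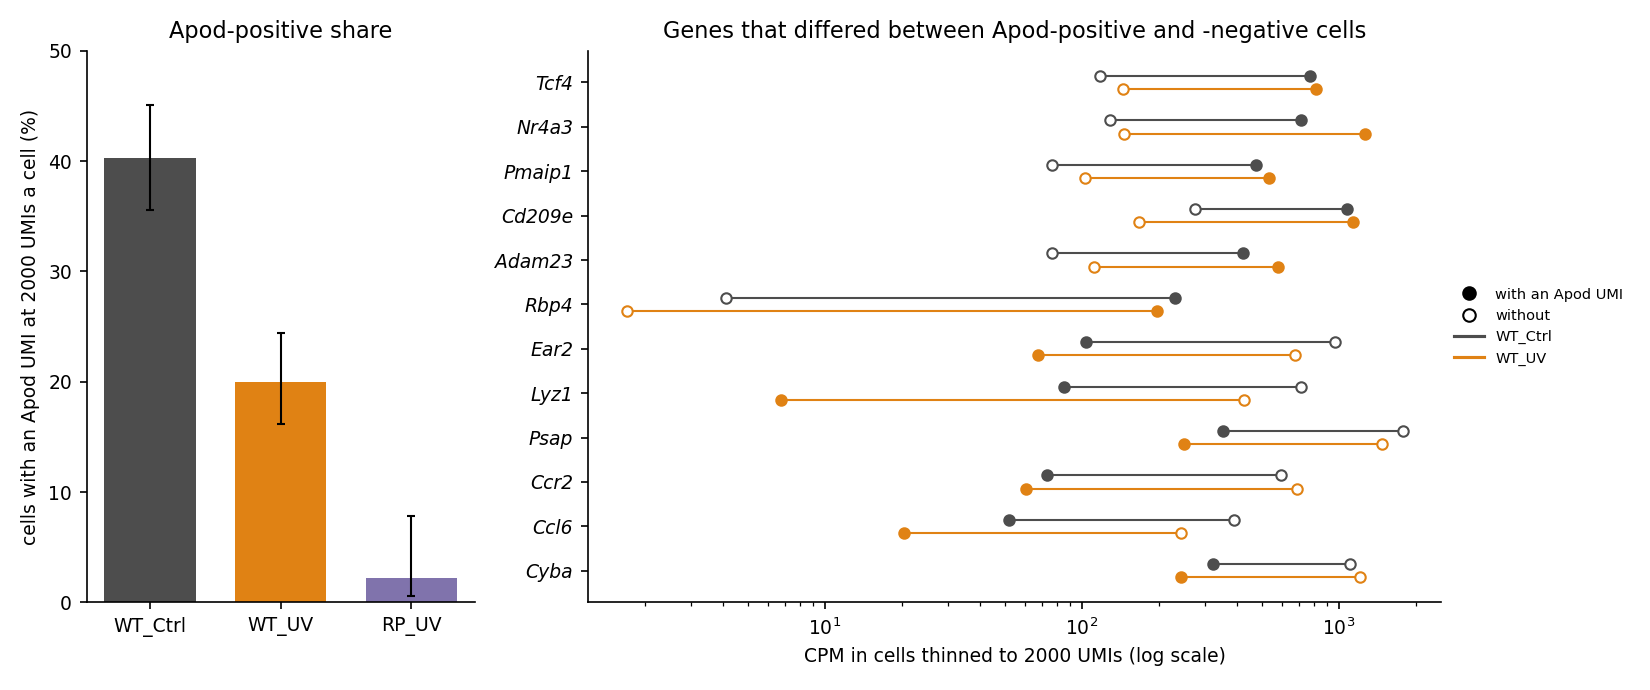
Left, percent of Cd209a dendritic cells with an Apod UMI at 2000 UMIs a cell (bars from 0, 95% Wilson intervals). Right, CPM on a log scale in cells with an Apod UMI (filled) and without (open) for the 6 genes ranked first as higher and the 6 ranked first as lower with Apod over both wild-type libraries. Tcf4 lies at 771 against 117 CPM in WT_Ctrl, and Ear2 runs the other way at 104 against 963 CPM.

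Members with Ccl17 formed a much smaller group of 10, 13 and 12 thinned cells, that is 2.46%, 3.51% and 13.5%. In WT_Ctrl and WT_UV these cells had the interferon-induced chemokine Cxcl9 at 1350 and 577 CPM, against 51.6 and 7 CPM in the other members, and Cxcl10 at 200 and 500 against 41.6 and 22.4 CPM. None of these 10 and 13 cells had an Apod UMI at this depth. The groups are small, and 3 cells carried 72.2% and 76.5% of all Cxcl9 UMIs of members in these libraries.

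Members without Mgl2 were 32, 56 and 13 thinned cells. In all 3 libraries they had more Irf8, at 188, 670 and 154 CPM against 26.7, 28.7 and 6.58 in members with Mgl2, and more Plac8, at 531, 786 and 115 CPM against 60, 44.6 and 6.58. Members with Mgl2 had more of the macrophage receptors Mrc1, at 509, 822 and 908 against 188, 375 and 192 CPM, and Adgre1, at 204, 153 and 118 against 31.2, 44.6 and 0. Members without a Cd209a UMI also had more Irf8, at 74.8, 266 and 69 CPM against 26.7, 65.6 and 8.33, from 16 UMIs on each side in WT_Ctrl and from 4 against 1 in RP_UV.

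To describe the response to UVB and to Cox-2, UMIs were summed over members and compared between libraries for the 3985 genes outside the rule with a mean of 30 CPM or more. From WT_Ctrl to WT_UV, 103 genes (2.58%) were at least 2-fold higher and 29 (0.728%) at least 2-fold lower. From WT_UV to RP_UV, 112 (2.81%) were higher and 139 (3.49%) lower. Within 1 run code, RP_UV had 264 genes (6.62%) higher than WT_Ctrl and 171 (4.29%) lower. The last split depended on scaling: by the median of ratios in place of total UMIs, 195 genes were higher and 233 lower. The median log2 ratio of all these genes was 0.07, 0.05 and 0.15 in the same order, and 0.01 for RP_UV over WT_Ctrl with that scaling. A ratio in what follows is always of summed CPM between 2 libraries.

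Genes of antigen presentation through class II were abundant in each library. Cd74, the invariant chain, was at 38667 CPM in WT_Ctrl, 27368 in WT_UV and 26237 in RP_UV, and H2-Eb1 at 15191, 9784 and 10808 CPM. In other kept cells Cd74 was at 10178, 10720 and 2338 CPM. RP_UV members were at 0.959 of WT_UV for Cd74 (0.943 to 0.974), while C1q-high macrophages had it at 9165 CPM in WT_UV and 2257 CPM in RP_UV. Of the 12 described class II genes, Lgmn was past 2-fold higher and H2-Oa past 2-fold lower in WT_UV, none was past 2-fold between RP_UV and WT_UV, and their median log2 ratio was -0.08, -0.07 and -0.32 over the 3 comparisons. Lgmn, a lysosomal protease far more abundant in macrophages, was at 13.8, 33.5 and 56.4 CPM in members and 363, 782 and 1009 CPM in other cells.

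Class I genes were lower in both irradiated libraries, but none of the 8 described genes was past 2-fold. H2-K1 was at 1105 CPM in WT_Ctrl, 670 in WT_UV and 715 in RP_UV, B2m, the light chain, at 1731, 1193 and 1125, and all 8 genes had ratios to WT_Ctrl below 1 in both libraries by total UMIs. Their median log2 ratio was -0.44 for WT_UV and -0.58 for RP_UV over WT_Ctrl. Of 15 listed costimulation and maturation genes 6 were described, and the other 9 were too low to be described. Among the 6 described genes Cd80 alone was past 2-fold, at 13.1, 32 and 69.7 CPM. Cd86 was at 107, 126 and 179 CPM and Cd83 at 439, 316 and 329 CPM. Cd80 in RP_UV was 5.31 times WT_Ctrl (3.33 to 8.5), T cells of RP_UV held it at 92.6 CPM, and its ratio of RP_UV to WT_UV was 2.18, or 1.16 with members rebuilt from thinned cells.

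Transcription factors of the lineage differed in direction. Klf4 was at 758, 790 and 493 CPM and Irf4 at 63.1, 68.2 and 39.8 CPM, so neither was past 2-fold. Irf8 was at 39.4 CPM in WT_Ctrl, 107 in WT_UV and 16.6 in RP_UV, and 70% of its 10 UMIs in RP_UV came from 1 cell. Of the 10 described factors, Irf8, Id2 and Bhlhe40 were past 2-fold higher in WT_UV, and Irf8 was the only one past 2-fold between RP_UV and WT_UV, at 0.155 (0.0738 to 0.286). With members rebuilt from thinned cells Irf8 was within 2-fold, at 0.596, and its ratio of WT_UV to WT_Ctrl was 1.87. Id2, an inhibitor of E proteins, was at 82.6, 218 and 252 CPM.

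On the surface, Mgl2 kept a level of 2354, 1991 and 2171 CPM in members, while in C1q-high macrophages of the same libraries it was at 2107, 1095 and 563 CPM. Cd209d was at 1060, 1039 and 948 CPM, and Clec10a (CD301a) at 215, 238 and 113 CPM, past 2-fold lower in RP_UV than in WT_UV. Cd24a, a heavily glycosylated surface protein, was at 20.2, 65.6 and 63.1 CPM, and Itgam (CD11b) at 79.1, 126 and 219 CPM. Dpp4 (CD26), one of the 11 genes that set members apart, was at 61.4, 36.8 and 24.9 CPM.

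Some growth factor receptors were higher after UVB and others were not. Csf2rb, the signalling chain of the GM-CSF receptor, was at 84.4 CPM in WT_Ctrl, 189 in WT_UV and 262 in RP_UV, with ratios to WT_Ctrl of 2.24 (1.95 to 2.59) and 3.11 (2.52 to 3.81). Il4ra was at 12.1, 32.5 and 54.8 CPM, and Cish, a feedback inhibitor of cytokine signalling, at 32.3, 87.2 and 92.9 CPM. These 3 of 8 described genes of the list were past 2-fold in WT_UV, with a list median of 0.55 against 0.07 over all genes, 2 of the 8 were below 1, and none was past 2-fold between RP_UV and WT_UV. In C1q-high macrophages Csf2rb was at 71.1, 103 and 70.7 CPM, and T cells of RP_UV held it at 106 CPM.

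The genes with the largest ratios after UVB in wild-type skin were low or near 0 in WT_Ctrl members. The level of Pgf, a growth factor of the VEGF family, was 4.61 CPM (2.45 to 7.88) for WT_Ctrl, 78.7 (71.8 to 86) for WT_UV and 120 (93.5 to 150) for RP_UV. Macrophages had it at 0, 27.1 and 8.85 CPM and T cells at 0, 0.54 and 0 CPM. The ratio of WT_UV to WT_Ctrl was 17.1 (9.88 to 32.3), and at full depth Pgf was found in 2.42%, 27.8% and 22.2% of members.

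Plet1, a surface protein first known from placenta, was at 6.03, 85.4 and 113 CPM, a ratio of 14.2 (8.76 to 24.5) in WT_UV, although 3 cells held 72.1% of its UMIs in RP_UV. The protease inhibitor Spint1 was at 6.03, 54.5 and 103 CPM and was spread over 3.87%, 35.9% and 35.6% of members at full depth. C1q-high macrophages had at most 3.82 CPM of Plet1 and 12.5 CPM of Spint1 in any library. Pxdc1 was at 1.06, 72.9 and 97.9 CPM from 3, 453 and 59 UMIs, a ratio of 68.5 (23.3 to 333) in WT_UV.

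Timp1, an inhibitor of matrix metalloproteinases, was at 0.355 CPM in WT_Ctrl from 1 UMI, 24.3 in WT_UV and 134 in RP_UV. Ffar2, a receptor for short-chain fatty acids, was at 1.06 CPM from 3 UMIs, 80.6 and 26.6 CPM. It was therefore highest in WT_UV, where 29.7% of members carried it at full depth. Mmp12, a marker of these cells that the rule did not use, was at 125, 313 and 242 CPM, 2.5 times higher in WT_UV (2.23 to 2.81). Its log2 ratio of RP_UV to WT_UV was -0.37 and lay between -1.06 and 0.36 over 14 alternatives, so no direction was read from it.

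Clec4n, Clec4e and Clec4d, C-type lectins that recognise fungal and mycobacterial lipids or sugars, were past 2-fold higher. The lectins Cd209e and Clec10a, which stand outside this list, were past 2-fold lower in RP_UV than in WT_UV. Members of WT_Ctrl held Clec4n (Dectin-2) at 16 CPM (11.6 to 21.4), those of WT_UV at 190 (180 to 202) and those of RP_UV at 446 (395 to 503). At full depth Clec4n was found in 6.3%, 53.8% and 62.2% of members. Its ratio was 11.9 for WT_UV over WT_Ctrl (8.86 to 16.5) and 2.34 for RP_UV over WT_UV (2.05 to 2.68). Clec4e (Mincle) was at 1.42, 12.2 and 191 CPM and Clec4d at 1.06, 7.4 and 118 CPM, with ratios of RP_UV to WT_UV of 15.6 (11.6 to 21.1) and 15.9 (10.8 to 23.6). With members rebuilt from cells thinned to 2000 UMIs these were 15.9 for Clec4e and 4.24 for Clec4d, and that of Clec4n was 1.93, within 2-fold. The rebuilt sets held 159 cells in WT_UV and 50 in RP_UV. Rebuilt levels in these libraries were 3.14 and 50 CPM for Clec4e and 9.43 and 40 CPM for Clec4d. The rebuilt Clec4e and Clec4d ratios thus rest on a few UMIs, have no interval and are no check of the values above. Of 12 described lectins and pattern receptors 4, 4 and 6 were past 2-fold higher in the 3 comparisons and none lower, with medians of 0.47, 0.54 and 0.99. Over all described genes 2.58%, 2.81% and 6.62% were higher, with medians of 0.07, 0.05 and 0.15. T cells of RP_UV, only 31 cells with 75557 UMIs, carried Clec4n at 807, Clec4e at 424 and Clec4d at 807 CPM, above the members, while those of WT_Ctrl and WT_UV had at most 16.7 CPM of each.

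Inflammatory cytokines and chemokines were then examined. Il1b was abundant in members of every library, at 1702 CPM in WT_Ctrl, 1309 in WT_UV and 3842 in RP_UV. WT_UV was at 0.769 of WT_Ctrl (0.742 to 0.797), and RP_UV was 2.93 times WT_UV (2.8 to 3.07), or 2.17 times with members rebuilt from thinned cells. C1q-high macrophages had Il1b at 82.2, 392 and 464 CPM, below members in each library. At 2000 UMIs a cell an Il1b UMI was found in 61.2%, 59.2% and 85.4% of members and in 0 of 175, 2.79% of 287 and 71.4% of 14 T cells.

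For Cxcl2, which attracts neutrophils, WT_Ctrl members stood at 45.8 CPM (38.2 to 54.4), WT_UV members at 302 (289 to 316) and RP_UV members at 2875 (2741 to 3013). The ratios were 6.61 for WT_UV over WT_Ctrl (5.53 to 7.96), 9.51 for RP_UV over WT_UV (8.9 to 10.2) and 62.8 for RP_UV over WT_Ctrl (52.5 to 75.7). Other kept cells were at 53.1, 508 and 1827 CPM. At 2000 UMIs a Cxcl2 UMI was found in 1.97%, 11.9% and 39.3% of members, beside 57.1% of the 14 T cells of RP_UV, whose summed level was 4804 CPM. The unthinned shares in RP_UV were 46.7% of members and 38.7% of 31 T cells. The order of members and T cells thus depended on depth, and no expression is read from the share. Without the members in which markers of neutrophils, keratinocytes, fibroblasts, mast cells or T cells held 1% or more of UMIs, 5 of them in RP_UV, the log2 ratio of RP_UV to WT_UV was 3.02 in place of 3.24.

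The promoter of Cxcl2 is shown as a single chosen example. Cxcl2 was past 2-fold in all 3 comparisons, as were other genes such as Clec4n, whose promoters are not shown. Its motif matches therefore say nothing about the genes that differed as a group. The 250 bases before its annotated start lie on the plus strand at chr5:90903649-90903898 of GRCm38.p6 and are taken from RefSeq. Capitals mark the 2 matches to a 10-base NF-κB motif, GGG then any 2 bases then TTTCC, sought on both strands, which begin 97 and 78 bases before the start. The motif was found in 464 of 32851 upstream windows of the same length, or 1.41%. A match is a stretch of letters and no evidence of binding.
Cxcl2 upstream: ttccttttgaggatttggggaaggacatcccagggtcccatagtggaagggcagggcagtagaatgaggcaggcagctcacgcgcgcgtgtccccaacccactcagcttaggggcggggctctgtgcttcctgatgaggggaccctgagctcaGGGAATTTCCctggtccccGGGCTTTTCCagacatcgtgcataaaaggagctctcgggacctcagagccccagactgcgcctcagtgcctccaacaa

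Of the 11 described chemokines, Ccl3, Cxcl2 and Cxcl16 were past 2-fold higher in WT_UV and Cxcl9 lower. Between RP_UV and WT_UV, Ccl3, Ccl4, Ccl6, Cxcl2 and Cxcl3 were past 2-fold higher and Cxcl9 lower. Cxcl3 was at 186 CPM in RP_UV, but 94.6% of its 112 UMIs lay in 1 cell. Cxcl16, a membrane-bound chemokine, was at 29.8, 64.2 and 86.3 CPM. Cxcl9 was at 103, 18.5 and 0 CPM, at least 20.7-fold lower in RP_UV than in WT_Ctrl against a floor of 3 UMIs, with a counting interval from 16.7. Few cells carried it, and with members rebuilt from thinned cells Cxcl9 was at 121, 160 and 20 CPM, 6.04 times lower in RP_UV than in WT_Ctrl. The rebuilt RP_UV value came from cells outside the members, which had no Cxcl9 UMI there. In the rebuilt sets Ccl6 was within 2-fold between RP_UV and WT_UV, at 1.12 in place of 2.87. The cytokine oncostatin M (Osm) was at 3.55, 20.4 and 83 CPM, while Tnf was at 89.4, 99.2 and 111 CPM, ratios that all included 1 in their intervals. Il12b, an interleukin subunit, had no UMI in members of any library.

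Chemokine receptors differed in direction. Ccr2 was at 379 CPM in WT_Ctrl, 512 in WT_UV and 198 in RP_UV, at 0.386 of WT_UV in the last (0.318 to 0.463). Its share at 2000 UMIs was 38.6%, 48.9% and 23.6% of members. Ccr1 was at 4.26, 20.3 and 94.6 CPM, with 622 CPM in T cells of RP_UV.

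Ptgs2, the enzyme that RP mice overexpress and the source of prostaglandins, was at 44.7 CPM in members of WT_Ctrl, 104 in WT_UV and 453 in RP_UV. RP_UV was 4.35 times WT_UV (3.76 to 5.02) and 10.1 times WT_Ctrl (8.18 to 12.6). With members rebuilt from thinned cells the Ptgs2 ratio of RP_UV to WT_UV was 1.89 and so within 2-fold, and with a limit of 4000 genes in every library the log2 ratio of WT_UV to WT_Ctrl was 0.40 in place of 1.20. Other kept cells of RP_UV were at 487 CPM and its T cells at 1099, so members did not stand above them. The thinned share of members with a Ptgs2 UMI was 3.93%, 7.57% and 29.2%, and that of T cells 0%, 1.39% and 57.1%. The unthinned shares in RP_UV were 46.7% and 41.9%, and no expression is read from them. Of the 9 described genes of the prostaglandin and cAMP list, Ptgs2 was the only one past 2-fold in WT_UV or between RP_UV and WT_UV. The prostaglandin receptors Ptger3, at 39.7, 25.3 and 44.8 CPM, and Ptgir, at 41.1, 40.9 and 44.8 CPM, were within 2-fold, and Ptger2 and Ptger4 were too low to be described.

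A list of 15 early response and heat shock genes was taken for the stress of tissue dissociation. It shares Fos, Jun and Junb with the genes that the study used for inflammation, so its values are not assigned to dissociation. None of the 15 was past 2-fold between WT_UV and WT_Ctrl, where the median log2 ratio was -0.30. In RP_UV over WT_UV the median was -0.05, with Egr1 past 2-fold higher and Jun and Hspa1b lower. Jun was at 542, 436 and 196 CPM, and Atf3, a stress-induced repressor, at 1437, 1008 and 656 CPM.

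Some genes of cell division and of the p53 response were past 2-fold higher in RP_UV members, where 6.62% of all described genes were so over WT_Ctrl and 2.81% over WT_UV. Stmn1, a tubulin-binding protein of dividing cells, was at 162, 129 and 329 CPM, with a ratio of RP_UV to WT_Ctrl of 2.02, or 1.43 with members rebuilt from thinned cells, and Top2a at 66.3, 82.8 and 136 CPM. Of 6 described cell cycle genes 4 were past 2-fold over WT_Ctrl and 2 over WT_UV, with medians of 1.02 and 0.78. A UMI of Mki67 was found in 8.35%, 6.22% and 12.4% of thinned members, with overlapping intervals of 6.04 to 11.4, 4.18 to 9.15 and 7.04 to 20.8, and in 9.14%, 10.1% and 14.3% of T cells.

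Among survival genes Bcl2a1b was at 89.7, 157 and 529 CPM, and Bax, which promotes apoptosis, at 155, 184 and 312 CPM. Of 7 such genes 4 were past 2-fold over WT_Ctrl, and Bcl2a1b was past 2-fold over WT_UV at 3.37, or at 1.48 with members rebuilt from thinned cells. The median over WT_UV was 0.76. The cell cycle inhibitor Cdkn1a was at 719, 621 and 1205 CPM and remained within 2-fold. T cells of RP_UV carried Bcl2a1b at 1469 and Cdkn1a at 1112 CPM. Bcl2a1b and Bcl2a1d are close copies, so that reads may be split between them.

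**Figure D3:**
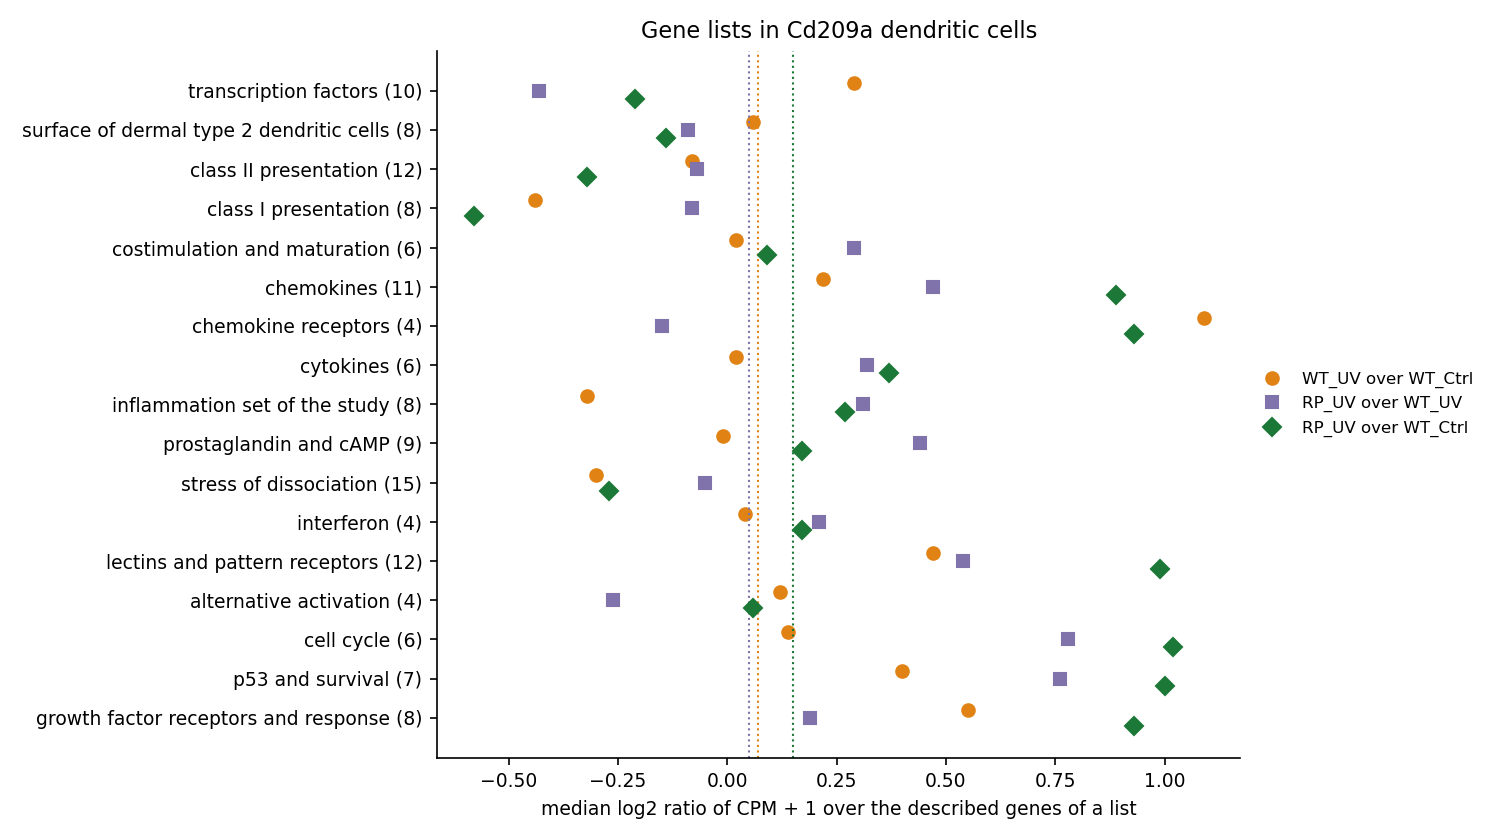
Median log2 ratio of CPM + 1 over the described genes of each of the 17 functional lists (number in parentheses; marker lists of cell types are not drawn) in Cd209a dendritic cells for the 3 comparisons. Dotted lines give the median over all 3985 genes, at 0.07, 0.05 and 0.15. Among these lists, cell cycle genes lie furthest to the right for RP_UV over WT_Ctrl, at 1.02, and class I presentation furthest to the left at -0.58.

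Several genes that marked the Apod-positive members were lower in RP_UV than in either wild-type library. Apod itself was 53 times lower than in WT_UV (20.7 to 195), from 4 UMIs. With members rebuilt from thinned cells, which can include cells outside the members, it was 4.72 times lower, at 60 CPM in RP_UV. Rbp4 was at 89.7 and 36.2 CPM in WT_Ctrl and WT_UV and had no UMI in RP_UV, at least 7.27-fold lower than WT_UV against the floor of 3 UMIs, with a counting interval that starts at 5.86. Cd209e was at 598, 331 and 58.1 CPM, Tcf4 at 378, 314 and 58.1 CPM and Cd7 at 173, 97.3 and 11.6 CPM. In members without an Apod UMI, Cd209e was at 253, 157 and 59 CPM and Tcf4 at 99.8, 103 and 50.4 CPM, ratios of RP_UV to WT_UV of 0.375 and 0.489 in place of 0.176 and 0.185. Nr4a3, at 358, 333 and 174 CPM over all members, was at 128, 154 and 168 CPM without Apod, and RP_UV was not the lowest there.

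Further genes were low in RP_UV in Apod-negative members as well. Ighm was at 121, 111 and 14.9 CPM, and at 95.3, 87.6 and 12.2 CPM in Apod-negative members. Ccr2 was at 0.299 of WT_UV there, a lower ratio than over all members. Plac8 was at 105, 140 and 14.9 CPM, with an Apod-negative ratio of 0.133, and with members rebuilt from thinned cells it was at 6.71, 53.5 and 30 CPM, so no direction against WT_Ctrl is read from it. Of 4 described genes of alternative activation, Mmp12 was past 2-fold higher in WT_UV, and Retnla was the only one past 2-fold in either RP_UV comparison, lower in both. Retnla, a secreted protein, was at 228, 139 and 31.5 CPM, and 3 cells held 53.7%, 62.1% and 84.2% of its UMIs. No direction is therefore read from it. Its share of 10.6% and 5.95% of thinned members in WT_Ctrl and WT_UV was close to the 12% and 5.57% of T cells. No expression is read from these shares.

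The neutrophil markers S100a8 and S100a9 were among the largest ratios. S100a8 was at 0.355, 0 and 408 CPM and S100a9 at 0, 0.483 and 450 CPM, found in 17.8% and 15.6% of RP_UV members. S100a8 was at least 846-fold higher than in WT_UV against the floor of 3 UMIs, with a counting interval from 683. The 31 RP_UV cells of the T cell class carried S100a8 at 3494 and S100a9 at 5863 CPM. All kept cells of RP_UV outside the members had 643 and 973 CPM, and C1q-high macrophages 148 and 210 CPM. Whether these 31 cells were T cells was not tested. Thbs1, a matrix glycoprotein, was at 1.42, 14.6 and 121 CPM in members and 17, 71 and 125 CPM in other cells, with 64.4% of its RP_UV UMIs in 3 cells. Ifitm1 was at 5.32, 145 and 387 CPM in members, at 24.2, 65.7 and 282 CPM in other kept cells and at 16.8, 11.9 and 953 CPM in T cells. Its ratio of RP_UV to WT_UV was 2.67, or 0.954 with members rebuilt from thinned cells.

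Several of these ratios rested on 1 or a few cells. Fabp4, an adipocyte and endothelial gene, was at 241, 0.643 and 168 CPM, with 99.6% of its WT_Ctrl UMIs and 86.1% of its RP_UV UMIs in 1 cell each. The epidermal genes Krt17, Cst6 and Defb6 were at 99.6, 204 and 121 CPM in WT_UV, with 71.6%, 90.8% and 88.4% of UMIs in 1 cell. Of Krt14, at 99.3, 41.7 and 292 CPM, 86.4% of the RP_UV UMIs were in 3 cells. Krt5 was at 90.8, 16.9 and 101 CPM and Krt15 at 195, 8.85 and 1.66 CPM. The fibroblast genes Col1a1, Col1a2, Col3a1, Dcn and Sparc were at 183, 162, 167, 99 and 160 CPM in WT_Ctrl and below 10 CPM each in WT_UV, and 3 cells carried 89.1% of the Col1a1 UMIs of WT_Ctrl. Gbp2, an interferon-induced GTPase, was at 68.8, 19 and 14.9 CPM, and at 80.5, 72.3 and 20 CPM with members rebuilt from thinned cells. No direction in Cd209a dendritic cells is read from Fabp4, Cxcl3 or the keratin, Cst6, Defb6 and collagen genes.

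**Figure D4:**
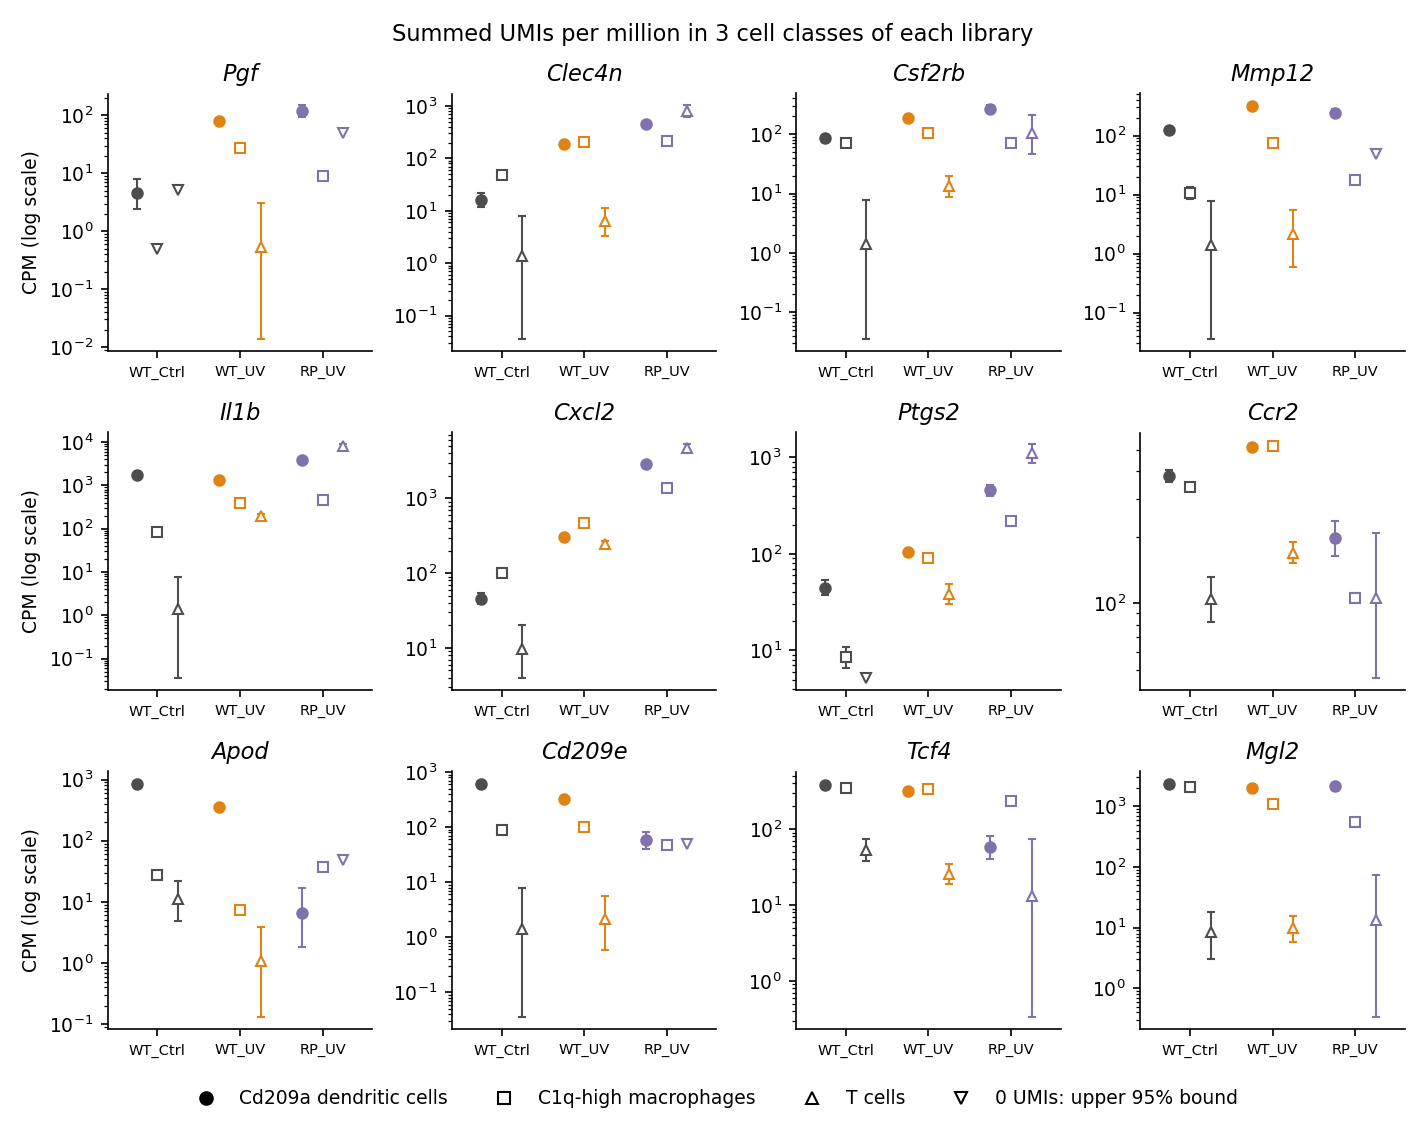
Summed CPM (log scale, 95% Poisson intervals) of 12 genes in Cd209a dendritic cells, C1q-high macrophages and T cells of the 3 libraries, with an open triangle pointing down at the upper bound where a class had no UMI. Pgf, Mmp12 and Mgl2 are highest in the dendritic cells of both irradiated libraries. In RP_UV, Cxcl2, Il1b, Ptgs2 and Clec4n are higher in the 31 cells of the T cell class, which also carried neutrophil transcripts.

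Compared with C1q-high macrophages of the same library, the dendritic cells were higher in Il1b, Mmp12 and Ear2 in each of the 3. Mmp12 was at 10.6, 73.4 and 17.9 CPM in macrophages against 125, 313 and 242, and Ear2 at 142, 124 and 24.3 CPM against 631, 493 and 443. Ccr2 was at 340, 521 and 106 CPM in macrophages against 379, 512 and 198, and was lowest in RP_UV in each. Irf8 was at 1732, 2025 and 2053 CPM in the 41 Xcr1 cells, far above the 39.4, 107 and 16.6 CPM of Cd209a dendritic cells. In the 26 cells with Ccr7 and Fscn1, of which RP_UV had 2, Mgl2 was at 11, 671 and 335 CPM and Bcl2a1b at 1971, 1632 and 2177 CPM.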

How the data were processed

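The files held raw UMI counts for 32285 genes in each of 3 libraries, which the authors made with Cell Ranger 6.1.1 on mm10 and deposited as filtered matrices without normalization. Replicates were not pooled, since each group was 1 library of 34985549 to 82722013 UMIs. No paper annotation of cells was used, and the study's integration step was not repeated. Following the study's limits, cells with under 10% mitochondrial UMIs, over 200 genes and under 4000 genes (6000 in WT_UV) were kept. No column of per-sample values was left out, and doublets were not called.

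Members and gene lists were chosen with earlier results of these data known. UMIs were summed over members of each library, and CPM, ratios and shares were given with exact Poisson, exact conditional binomial and Wilson 95% intervals. Past 2-fold means a ratio of at least 2 in either direction, with a library at 0 set to 3 UMIs. Genes named were, per comparison, the 10 highest and 10 lowest ratios by the interval bound nearest 1, among genes of at least 30 mean CPM, leaving out mitochondrial and ribosomal protein genes, unnamed gene models and sex-linked marker genes, plus the 15 leading markers and the genes of the fixed lists. Apod, the genes of the Apod, Ccl17, Mgl2 and Cd209a splits and Siglech were named after their values were seen. List medians used log2 of CPM + 1. Shares of cells were given after thinning to 2000 UMIs a cell where the text says so, which left out 6, 0 and 1 members. Other shares of members with a UMI are at full depth and rise with depth, which was greatest in WT_UV. Members rebuilt from thinned cells can include cells outside the members, and their ratios have no interval. Python 3.11.15, NumPy 2.4.6, SciPy 1.17.1, pandas 2.3.3 and matplotlib 3.10.9 were used, and the step that gives ratios and their intervals was tested on simulated data. The 17 alternatives concern filters, the rule, scaling, the pseudocount and single cells of high counts.

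Close copies such as Bcl2a1b and Bcl2a1d, Hspa1a and Hspa1b, Lyz1 and Lyz2, the Cd209, Ear and Ifitm families may share reads, and their single values are uncertain. Clec7a and Mx1 were not analysed here, and a few named genes are not reported here.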

Additional observations from a re-analysis of the deposited data

How the results depend on the processing

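No paired analysis was possible because each group was 1 library, and for the same reason none was left out in turn. Of the log2 ratios of named genes under the alternatives, 1028 stayed within their counting interval, 438 moved beyond it and 18 changed sign, and 584 list medians stayed and 130 moved. The cause of these changes was not tested.

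The share ratio of WT_UV to WT_Ctrl, 0.91, became 0.747 with 2 or more panel genes, 1.6 with 4 or more, 0.625 with no C1q UMI, 1.2 for members without an Apod UMI and 0.588 over Ptprc cells. That of RP_UV to WT_UV, 0.209, became 0.349 after thinning, 0.159 with 4 or more panel genes, 0.272 without Apod and 0.369 over Ptprc cells. That of RP_UV to WT_Ctrl, 0.191, became 0.342 after thinning, 0.255 with 4 or more panel genes, 0.326 without Apod and 0.109 with no C1q UMI. Its direction held under each of these, whereas that of WT_UV to WT_Ctrl did not.

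Counts of genes past 2-fold differed with thinning, which gave smaller sets that can hold other cells (149, 159 and 50), and with the expression floor. Thinning gave 281 higher and 128 lower genes for WT_UV over WT_Ctrl, 398 and 452 for RP_UV over WT_UV and 558 and 452 for RP_UV over WT_Ctrl. A floor of 100 CPM gave 27 and 7, 35 and 38, and 83 and 41 in that order, and no floor gave 911 and 1374, 1347 and 1043, and 1598 and 1094. For RP_UV over WT_UV, 194 genes were higher with 4 or more panel genes and 182 with no C1q UMI. Without the 3% of members highest for each gene, chosen after seeing the data, 13 genes were lower in WT_UV than in WT_Ctrl.

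The log2 ratio of WT_UV to WT_Ctrl became -0.47 for Cst6 after thinning, -0.38 with the limit of 4000 genes and -0.97 with no C1q UMI, 0.57 for Fabp4 with 4 or more panel genes and 0.91 without Apod, and 0.41 for Cxcl9 after thinning. That of RP_UV to WT_UV became 1.53, 0.43, 0.14 and 0.38 for Defb6 and 2.77, 1.0, 0.74 and 1.46 for Cst6 under thinning, the 4000 limit, 4 or more panel genes and no C1q UMI, 1.0 for Cst6 without the top 3% of members, and -2.67 for Ccl22 after thinning. That of RP_UV to WT_Ctrl became 0.09 for Col3a1 without the top 3% and 0.22 for Zbtb46 with 4 or more panel genes.

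With 90 members and 602500 UMIs in RP_UV, the floor of 3 UMIs was 4.98 CPM there, against 1.06 in WT_Ctrl and 0.483 in WT_UV.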

Other observations

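Interferon-induced genes were few among the described genes of Cd209a dendritic cells. Of 13 listed, 4 reached the floor, and none was past 2-fold from WT_Ctrl to WT_UV or from WT_UV to RP_UV. Over WT_Ctrl, Isg15 and Ifitm3 were past 2-fold higher in RP_UV and Bst2 lower. Isg15, a ubiquitin-like modifier, was at 21.6 CPM in WT_Ctrl, 28.5 in WT_UV and 44.8 in RP_UV, where 3 cells held 66.7% of its UMIs. Ifitm3 was at 158, 270 and 354, and Bst2 (tetherin) was at 222, 181 and 105. Without the 3% of members highest for each gene, the ratios of RP_UV to WT_Ctrl were 1.5 for Isg15, 2.68 for Ifitm3 and 0.523 for Bst2. Only Ifitm3 was then past 2-fold. The list medians were 0.04, 0.21 and 0.17 for WT_UV over WT_Ctrl, RP_UV over WT_UV and RP_UV over WT_Ctrl.

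The 8 genes that the study used as an inflammation set differed among themselves. From WT_Ctrl to WT_UV Cxcl2 was the only one past 2-fold, and the set's median was -0.32. The study applied this set to the same libraries, so it is no independent evidence of a direction. Fos was at 2695, 1921 and 1557 CPM, and Nfkbia, an inhibitor of NF-κB, at 1517, 931 and 1783 CPM. From WT_UV to RP_UV Il1b and Cxcl2 were past 2-fold higher and Jun lower, with a median of 0.31.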
